A study of Arabidopsis thaliana with 6 samples.

Results

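The NGATHA and NGATHA-like genes of *Arabidopsis thaliana* are 7 closely related members of the RAV family, chosen as a list of loci: *NGA1*, *NGA2*, *NGA3*, *NGA4*, *NGAL1*, *NGAL2* and *NGAL3*. They are 7 of the 32678 genes in the files, and all 7 passed the filter on low counts and were among the 20813 genes tested. Their RNA was measured in *bpcV*, the quintuple mutant *bpc1-2 bpc2 bpc3 bpc4 bpc6*, and in wild type plants, both of the Col-0 ecotype, grown under long days at the same temperature and without treatment, with 3 biological replicates of each genotype and 1 library per replicate. RNA came from whole inflorescence apices that carried flowers up to stage 12, so every value averages all the organs and stages of the apex. In such bulk tissue, fewer cells that express a gene and less RNA of that gene per cell cannot be told apart.

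NGATHA proteins are transcription factors that bind DNA through a B3 domain and lack the AP2 domain found in the other RAV proteins. The *NGA* genes act redundantly: their combined loss removes style and stigma from the top of the gynoecium and alters petal and leaf shape, and they act there with SHI/STY proteins and upstream of auxin synthesis genes of the *YUC* family. The NGATHA-like proteins carry a repression motif and limit organ growth and boundary formation; *NGAL2* is also known as *SOD7* and *NGAL3* as *DPA4*, and their proteins repress *KLU* and *CUC* genes. TCP proteins of the CIN type are known to activate *NGA* genes, and BASIC PENTACYSTEINE (BPC) proteins, 5 of whose genes are mutated in *bpcV*, bind GA-rich DNA.

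The members lie apart in the genome, on chromosomes 1 to 5 of TAIR10.1, and no annotated gene overlaps any of them. *NGA3* (AT1G01030) runs from 11649 to 13714 on the minus strand of chromosome 1, and *NGA4* (AT4G01500) from 639247 to 640976 on the plus strand of chromosome 4. *NGA1* (AT2G46870) runs from 19260906 to 19262533 on the plus strand of chromosome 2, where *NGAL1* (AT2G36080) also lies, from 15148259 to 15151634 on the minus strand. *NGA2* (AT3G61970), from 22951323 to 22953265 on the plus strand, and *NGAL2* (AT3G11580), from 3648902 to 3651726 on the minus strand, are on chromosome 3. *NGAL3* (AT5G06250) runs from 1891880 to 1894353 on the minus strand of chromosome 5. *NGA1* and *NGA2* have a single exon each, while the annotated transcripts of *NGA3* have 2 or 3 exons.

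Because RSEM assigns reads among similar transcripts, the coding sequences of the RefSeq annotation were compared first. Identity was 58.3 to 73.3% between pairs of *NGA* genes (median 60.4%), 65.1 to 71.8% between pairs of *NGAL* genes (median 67.7%) and 50.7 to 57.0% between an *NGA* and an *NGAL* gene (median 52.5%). *NGA3* was closest to *NGA4*, at 67.4%, and *NGA1* to *NGA2*, at 73.3%. The longest stretch without a difference was 63 bases, between *NGA1* and *NGA2*, and the longest that *NGA3* shared with another member was 29 bases, with *NGA4*. All 42 expected counts of the members, 7 genes in 6 libraries, were whole numbers to within 0.005, that is, no read was divided between a member and another gene to a visible extent. The stretch below, within the coding region of the B3 domain, is where the members are most alike. Of its 60 bases, 42, in capitals, are the same in all 7 genes. *NGA4* matches *NGA3* at 54 bases and *NGAL3* matches *NGA3* at 46. *NGA1* and *NGA2* are the same at all 60 bases, so the stretch does not tell this pair apart, and only *NGA1* of the pair is printed.
*NGA1* (coding bases 250 to 309): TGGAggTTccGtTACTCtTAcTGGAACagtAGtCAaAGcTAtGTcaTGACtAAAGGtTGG
*NGA3* (coding bases 313 to 372): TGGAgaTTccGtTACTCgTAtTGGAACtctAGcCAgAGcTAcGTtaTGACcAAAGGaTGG
*NGA4* (coding bases 247 to 306): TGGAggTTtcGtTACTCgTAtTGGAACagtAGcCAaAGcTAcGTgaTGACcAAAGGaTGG
*NGAL3* (coding bases 313 to 372): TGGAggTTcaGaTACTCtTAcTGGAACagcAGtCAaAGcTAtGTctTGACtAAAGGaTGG

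The region around the start of the *NGA3* transcript is shown because *NGA3* carried the clearest difference of the family. The 300 bases from 250 before to 50 after its annotated start (TAIR10.1, chr1:13665-13964, minus strand) hold 32.0% G and C. Capitals mark the only match to GAGAGA within this window, the kind of GA-rich string that BPC proteins bind, read here on the other strand as TCTCTC. They also mark the only site with GGNCCC, a string bound by TCP proteins. The GAGAGA match lies at the edge of the window. In the window from 1000 bases before to 100 after the start, *NGA3* had 3 overlapping matches, from bases 45, 47 and 49, and 24.1% of all such windows had at least as many.
*NGA3*: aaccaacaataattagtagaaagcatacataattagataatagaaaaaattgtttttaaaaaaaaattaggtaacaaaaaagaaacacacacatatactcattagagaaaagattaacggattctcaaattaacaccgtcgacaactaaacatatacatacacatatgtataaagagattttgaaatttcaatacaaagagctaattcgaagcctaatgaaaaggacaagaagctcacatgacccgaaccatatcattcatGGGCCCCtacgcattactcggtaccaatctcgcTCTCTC

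Both strands of the same window were searched for GAGAGA, for GGNCCC, for CACTTG (a string bound by NGATHA B3 domains) and for CACGTG (the G-box) in the 7 members and in all 27443 protein-coding genes. GAGAGA was present in 3 of the 7 members, *NGA1* with 1 match, *NGA3* with 1 match and *NGA4* with 5 matches that partly overlap each other, beside 29.2% of all windows. CACTTG was in none of the 7 and nor was CACGTG, beside 11.2% and 7.68% of all windows. GGNCCC was found in *NGA1*, *NGA3* and *NGA4* and in no *NGAL* gene, beside 8.68% of all windows, each time as 2 matches that overlap at a single site. In windows from 1000 bases before to 100 after the start, GAGAGA was in 4 of the 7 members (*NGA1*, *NGA3*, *NGA4* and *NGAL2*), beside 67.0% of all windows, so that the share of members was above that of all genes in the shorter window and below it in the longer one. In the longer windows *NGA2* had a GGNCCC site too, 83 bases after its start, so that all 4 *NGA* genes and none of the 3 *NGAL* genes held it, beside 23.2% of all windows. A match to such letters is a description of the sequence and does not show binding.

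The 30 bases that end with the GGNCCC site were alike in the 4 *NGA* genes. They are printed to show a sequence that the *NGA* genes share outside their coding regions, and were chosen after the windows had been read. Capitals mark the 14 positions at which all 4 genes have the same base, which include the fixed letters of GGNCCC, by which the stretch was placed.
*NGA1* (chr2:19260849-19260878, plus strand): tgaActgaAcCagatttaTTCATGGGtCCC
*NGA2* (chr3:22951382-22951411, plus strand): atgAacagAaCcagattgTTCATGGGcCCC
*NGA3* (chr1:13697-13726, minus strand): atgAcccgAaCcatatcaTTCATGGGcCCC
*NGA4* (chr4:639154-639183, plus strand): atgAcccgAaCcacaccaTTCATGGGcCCC
Counted from the annotated start, the stretch lies from -57 to -28 in *NGA1*, from -93 to -64 in *NGA4*, from -12 to 18 in *NGA3*, across the start, and from 60 to 89 in *NGA2*. These positions and the windows above rest on RefSeq starts, which may differ from those of the deposited gene models. *NGA2*, for example, spans 1943 bases in RefSeq with a single exon, but has a length of 1389 in the deposited files. The end of the stretch reads TTCATGGGNCCC in all 4. The string was taken from these 4 sequences, so their presence among the genes that hold it follows from the choice. On either strand, this string of 12 letters was in the shorter window of 6 of the 27443 protein-coding genes (0.0219%), of which 3 were *NGA1*, *NGA3* and *NGA4*, and in the longer window of 10 genes (0.0364%), of which 4 were the *NGA* genes. Of the 4 genes, only *NGA3* was called in the comparison of RNA levels below, and a link between the string and RNA level was not tested.

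Each library held between 16196042 and 21455150 expected counts, and the common biological coefficient of variation was 13.0%. With an FDR threshold of 0.01 (edgeR), 345 genes of 20813 were higher in *bpcV* (1.66%) and 464 were lower (2.23%). The median log2 fold change over all genes was 0.01. The mutated genes were checked against the labels: *BPC1* had 15, 12 and 6 expected counts in *bpcV* against 541, 383 and 414 in wild type, *BPC2* and *BPC6* had log2 fold changes of -4.43 and -4.48, *BPC4* had one of -0.62 (FDR 0.00236), and *BPC3* had 63, 71 and 94 expected counts in *bpcV* against 73, 66 and 43 in wild type (FDR 0.292). Reads of a mutated gene can come from transcripts of the mutant allele, so counts of *BPC3* and *BPC4* do not test their labels. Of the markers of other cells in the apex, the summed CPM of 5 carpel and ovule genes ranged from 84.4 to 124 in *bpcV* and from 110 to 121 in wild type, that of 6 floral organ identity genes from 606 to 789 in *bpcV* and from 605 to 631 in wild type, that of 3 late pollen genes from 1322 to 2003 in *bpcV* and from 1703 to 1829 in wild type, and that of the 3 tapetum genes tested, of 5 listed, from 19.0 to 39.4 in *bpcV* and from 38.5 to 73.0 in wild type, with *DYT1* at 0 or 1 expected count in every library. None of these marker genes passed the threshold. *AMS*, a tapetum regulator, nevertheless had a log2 fold change of -1.24 (FDR 0.0358, edgeR) and was lower in every *bpcV* library than in any wild type library, and *TDF1*, a tapetum gene below the filter, had 5, 0 and 3 expected counts in *bpcV* against 11, 15 and 16 in wild type. *AP1*, a floral organ identity gene, came nearer to the threshold, with a log2 fold change of 0.48 (FDR 0.0154, edgeR). By CPM, *AP1*, *AP3* and *AG* were higher in every *bpcV* library than in any wild type library, beside 18.2% of all genes tested. The late pollen gene *PPME1* was lower in every one (-0.42, FDR 0.0594, edgeR), beside 17.6%. The part of organ composition in the values that follow was not tested.

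Among the *NGA* genes, *NGA3* was lower in *bpcV*, and none of the other 3 passed the threshold. *NGA3* had 3.09, 2.47 and 3.79 TPM in the 3 *bpcV* libraries, against 8.83, 8.11 and 8.52 TPM in the wild type libraries. These levels rest on 76, 65 and 113 expected counts in *bpcV* and 277, 214 and 229 in wild type. Every *bpcV* library lay below every wild type library, with a clear gap between the genotypes. The log2 fold change was -1.44 ± 0.17 (SE, n = 3 per genotype), with a 95% interval from -1.82 to -1.07, and the FDR was 0.00168 in edgeR's quasi-likelihood test. The fold change stayed between -1.63 and -1.22 under 17 other ways to process the data, and the gene passed the threshold in 14 of them. The exceptions each left out 1 wild type library: the FDR of edgeR's test was 0.0126 without wild type replicate 1, 0.0122 without replicate 2 and 0.0112 without replicate 3.

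*NGA1*, the most abundant *NGA* gene, had 25.2, 26.0 and 21.4 TPM in *bpcV* and 21.1, 19.5 and 18.4 TPM in wild type. The lowest *bpcV* library was only just above the highest wild type library. Its log2 fold change was 0.29 ± 0.10, with a 95% interval from 0.05 to 0.53, and it did not pass the threshold (FDR 0.112, edgeR). *NGA2*, the close relative of *NGA1*, had 6.92, 7.93 and 6.38 TPM in *bpcV* and 6.30, 4.54 and 6.66 TPM in wild type, and the genotypes overlapped. The difference was 0.27 ± 0.17 on the log2 scale, with a 95% interval from -0.12 to 0.66 (FDR 0.339, edgeR).

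*NGA4*, the member with the coding sequence closest to *NGA3*, gave no sign of the lower level seen for *NGA3*. It had 2.59, 1.76 and 1.82 TPM in *bpcV* against 1.61, 1.41 and 1.18 TPM in wild type, and the genotypes did not overlap. With 48, 35 and 41 expected counts in *bpcV* and 38, 28 and 24 in wild type, its log2 fold change of 0.54 ± 0.24 had a wide 95% interval, from -0.02 to 1.10 (FDR 0.195, edgeR). The interval of *NGA4* lay wholly above that of *NGA3*, although these are intervals of separate genes and not a test of their difference.

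Of the *NGAL* genes, *NGAL3* was the one with the largest difference, and it missed the threshold. *NGAL3* had 1.5, 1.76 and 2.38 TPM in *bpcV* and 3.42, 4.04 and 3.53 TPM in wild type, with every *bpcV* library below every wild type library. It was the member with the fewest reads in *bpcV*: 15, 19 and 29 expected counts there, against 44, 43 and 39 in wild type. Its log2 fold change was -0.95 ± 0.25, with a 95% interval from -1.52 to -0.37, and its FDR of 0.0458 (edgeR) was above the threshold of 0.01. Of the 17 alternatives only edgeR's likelihood ratio test put it past 0.01, at an FDR of 0.00513, and the FDR reached 0.148 without wild type replicate 2.

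*NGAL1*, also known as *ABS2*, whose overexpression alters petals and leaves, had 21.6, 23.3 and 25.1 TPM in *bpcV* against 20.9, 18.8 and 18.2 TPM in wild type. The genotypes were separated by a narrow gap, and the log2 fold change of 0.27 ± 0.11 (95% interval 0.03 to 0.51) did not pass the threshold (FDR 0.142, edgeR). *NGAL2* had 16.0, 12.3 and 13.6 TPM in *bpcV* and 12.1, 15.4 and 12.8 TPM in wild type, which overlapped throughout. Its log2 fold change was 0.09 ± 0.14, and the 95% interval of -0.23 to 0.42 leaves room for small differences either way (FDR 0.712, edgeR).

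**Figure D1:**
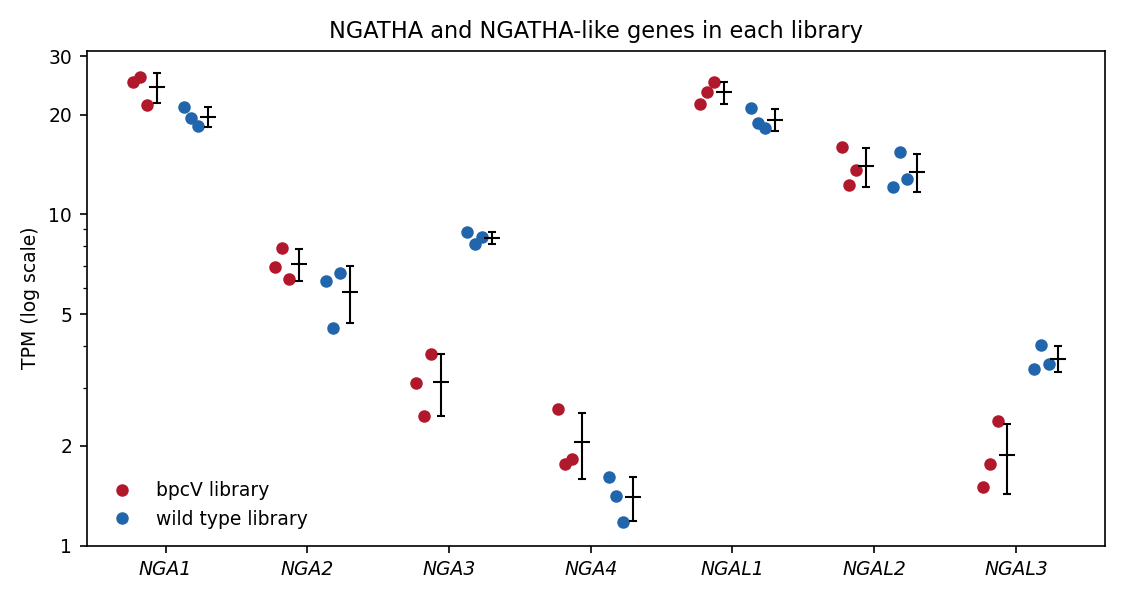
TPM (log scale) of the 7 genes in each library, *bpcV* left of wild type within each gene, with 1 point per library and the mean ± SD beside the points (n = 3). *NGA3* lay between 2.47 and 3.79 TPM in *bpcV* and between 8.11 and 8.83 TPM in wild type, and *NGAL3* was the only other gene with all *bpcV* points below the wild type points.

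Over the 7 genes, 1 was lower and 0 were higher at the FDR of 0.01, beside 2.23% and 1.66% of all genes tested (3.89% in either direction), and the median log2 fold change was 0.27. By CPM, 3 genes (*NGA1*, *NGA4* and *NGAL1*) were higher in every *bpcV* library than in any wild type library and 2 (*NGA3* and *NGAL3*) were lower, beside 18.2% and 17.6% of all genes. The 7 log2 fold changes were thus not all of 1 sign, and *NGA3* was the only member called. Each branch held 1 member that was lower in all *bpcV* libraries, but in a list this short such counts are not read as a trait of the family.

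**Figure D2:**
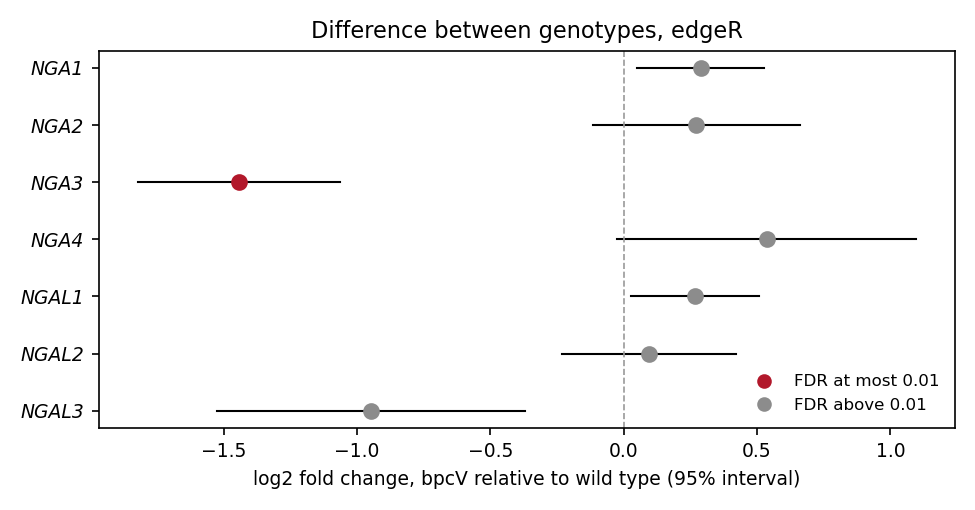
Log2 fold change of *bpcV* relative to wild type for the 7 genes (points) with 95% intervals (lines), from edgeR's quasi-likelihood fit. Red marks an FDR of at most 0.01 and grey one above it: *NGA3*, at -1.44, is the only red point, and *NGAL3*, at -0.95, is the other gene left of 0.

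In both genotypes *NGA1* and *NGAL1* were the most abundant members, at 24.2 ± 2.48 and 23.3 ± 1.78 TPM in *bpcV* (SD, n = 3) and at 19.7 ± 1.37 and 19.3 ± 1.44 TPM in wild type, and their library values overlapped in each genotype. *NGAL2* followed, at 14.0 ± 1.88 TPM in *bpcV* and 13.4 ± 1.76 TPM in wild type. Below it, the order differed between the genotypes. In *bpcV* libraries, *NGA2* (7.08 ± 0.787 TPM) came before *NGA3* (3.12 ± 0.660 TPM), *NGA4* (2.06 ± 0.463 TPM) and *NGAL3* (1.88 ± 0.452 TPM), and of these last 3 each overlapped the next. In wild type, *NGA3* (8.49 ± 0.361 TPM) came before *NGA2* (5.83 ± 1.13 TPM), *NGAL3* (3.66 ± 0.331 TPM) and *NGA4* (1.40 ± 0.215 TPM), with no overlap between neighbours. *NGA3* was thus above *NGA2* in all 3 wild type libraries and below it in all 3 *bpcV* libraries.

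The summed level of the *NGA* genes differed by less than the spread between libraries, while the share of *NGA3* in it was lower in every *bpcV* library. *NGA1* to *NGA4* together gave 36.4 ± 2.67 TPM in *bpcV* (33.4 to 38.2) and 35.4 ± 2.23 TPM in wild type (33.5 to 37.9), and the ranges overlapped (two-sided exact permutation test, p = 0.8). Of this sum, *NGA3* made up 8.67 ± 2.48% in *bpcV* (6.47 to 11.4%) and 24.0 ± 0.612% in wild type (23.3 to 24.5%). Shares of one sum are tied to each other, so a smaller share of *NGA3* leaves larger shares to the rest. The share of *NGA1* was 66.3 ± 2.07% in *bpcV* and 55.6 ± 2.56% in wild type. For both shares the exact permutation test gave p = 0.1, the smallest value that 3 libraries against 3 allow. *NGA2* made up 19.4 ± 1.24% in *bpcV* and 16.4 ± 2.81% in wild type, and the ranges overlapped (exact permutation p = 0.3). *NGA4* made up 5.64 ± 1.14% in *bpcV* and 3.95 ± 0.483% in wild type, without overlap (exact permutation p = 0.1).

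Among the *NGAL* genes the sum was 39.2 ± 1.90 TPM in *bpcV* and 36.4 ± 1.91 TPM in wild type, with overlapping ranges (exact permutation p = 0.2). *NGAL3* made up 4.78 ± 0.973% of it in *bpcV* and 10.1 ± 0.610% in wild type, without overlap (exact permutation p = 0.1, the smallest possible). *NGAL1* held 59.6 ± 3.83% in *bpcV* and 53.1 ± 4.14% in wild type, and *NGAL2* held 35.6 ± 4.58% in *bpcV* and 36.9 ± 3.54% in wild type. Over the 9 exact permutation tests of shares and sums, the lowest p adjusted by Benjamini-Hochberg was 0.225. The exact permutation test gave p = 0.2 for the share of *NGAL1* and p = 0.8 for that of *NGAL2*, whose library values overlapped between the genotypes.

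**Figure D3:**
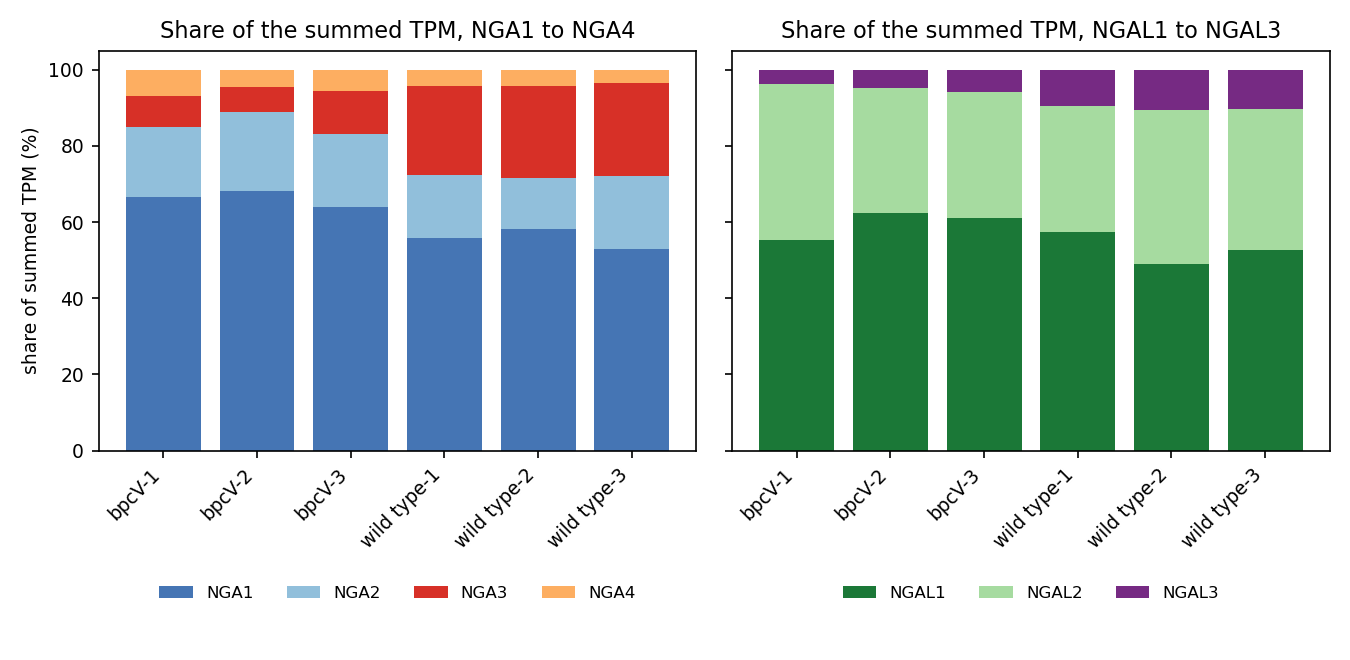
Share of each gene (%) in the summed TPM of *NGA1* to *NGA4* (left) and of *NGAL1* to *NGAL3* (right), 1 bar per library, *bpcV* bars left of wild type bars. The *NGA3* segment spans 6.47 to 11.4% in *bpcV* and 23.3 to 24.5% in wild type, and the *NGAL3* segment averages 4.78% in *bpcV* and 10.1% in wild type.

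The CIN-type *TCP* genes, whose proteins act upstream of *NGA* genes, were measured in full: 8 of 8 were tested. Of these 1 was lower and 0 were higher, beside 2.23% and 1.66% of all genes tested. The median log2 fold change was 0.37, beside 0.01 for all genes. The gene that fell was *TCP13*, which encodes a CIN-type factor of leaf and flower development. *TCP13* had 9.88, 13.3 and 10.1 TPM in *bpcV* against 25.3, 24.6 and 24.8 TPM in wild type, a log2 fold change of -1.18 ± 0.13 (FDR 0.00134, edgeR). The pair of *NGA3* and *TCP13* thus had all *bpcV* libraries below all wild type libraries, as had 17.6% of all genes tested by CPM. Whether the levels of both genes are linked was not tested. Without *bpcV* replicate 3, wild type replicate 1 or wild type replicate 2, the FDR of *TCP13* in edgeR's test was 0.0102, 0.0106 or 0.0119.

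No other *TCP* gene of this list passed the threshold. *TCP4*, a target of miR319 that restrains organ growth, had 23.5, 24.2 and 23.5 TPM in *bpcV* and 19.2, 18.3 and 17.8 TPM in wild type. Its log2 fold change of 0.41 ± 0.08 came close to the threshold without passing it (FDR 0.0137, edgeR). *TCP24* (0.55, FDR 0.0166), *TCP10* (0.48, FDR 0.0258) and *TCP3* (0.44, FDR 0.0230) had similar values in edgeR's test. With these and *TCP2*, 5 of the 8 genes were higher in every *bpcV* library than in any wild type library by CPM, beside 18.2% of all genes tested. *TCP13* alone was lower in every one, beside 17.6% of all genes tested.

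Partners of the NGATHA proteins at the style and stigma did not pass the threshold: 10 of 10 were tested. Of these 0 were higher and 0 lower, beside 1.66% and 2.23% of all genes tested, and the median log2 fold change was -0.32. *SPT*, which encodes a bHLH factor of the style, septum and transmitting tract, came nearest. It had 10.2, 8.57 and 8.27 TPM in *bpcV* against 13.0, 13.3 and 14.9 TPM in wild type, without overlap, and its log2 fold change was -0.61 ± 0.11 (FDR 0.0128, edgeR). By CPM, 2 of the 10 partners, *SPT* among them, had all *bpcV* libraries below all wild type libraries, beside 17.6% of all genes tested. In 1 partner all *bpcV* libraries lay above, beside 18.2%. *SPT* passed 0.01 in 3 of the 17 alternatives.

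No downstream gene was called, beside 3.89% of all genes tested in either direction, so counts of 0 in such short lists say little. The 3 auxin synthesis genes *TAA1*, *YUC2* and *YUC4* were all tested, with 0 called and a median log2 fold change of -0.07. *YUC4*, a flavin monooxygenase gene of auxin synthesis at the gynoecium tip, had only 1.2, 1.6 and 0.90 TPM in *bpcV* and 0.67, 0.69 and 1.47 TPM in wild type. Its log2 fold change was 0.41 ± 0.39 (FDR 0.540, edgeR), and the 95% interval, from -0.48 to 1.30, is wide at this depth.

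Of the 4 genes that NGATHA-like proteins repress (*KLU*, *CUC1*, *CUC2* and *CUC3*), all were tested and 0 were called, beside 3.89% of all genes tested. Their median log2 fold change was -0.06. *KLU*, a cytochrome P450 gene that promotes organ growth, had 5.72, 5.02 and 6.37 TPM in *bpcV* and 7.42, 7.63 and 9.80 TPM in wild type. These values did not overlap, and the log2 fold change was -0.54 ± 0.15 (FDR 0.0535, edgeR). *CUC2*, a NAC gene that sets organ boundaries, had 2.93, 1.91 and 3.26 TPM in *bpcV* and 2.76, 2.26 and 3.22 TPM in wild type, which overlapped throughout (log2 fold change -0.02 ± 0.25). The sign of this value changed when single libraries were left out.

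The 6 related *RAV* genes whose proteins keep the AP2 domain had no called member either: 4 passed the filter on low counts. Of these 0 were higher and 0 lower, beside 1.66% and 2.23% of all genes tested, and the median log2 fold change was -0.21. The 4 values ranged from -0.48 to 0.48 and so were not all of 1 sign.

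**Figure D4:**
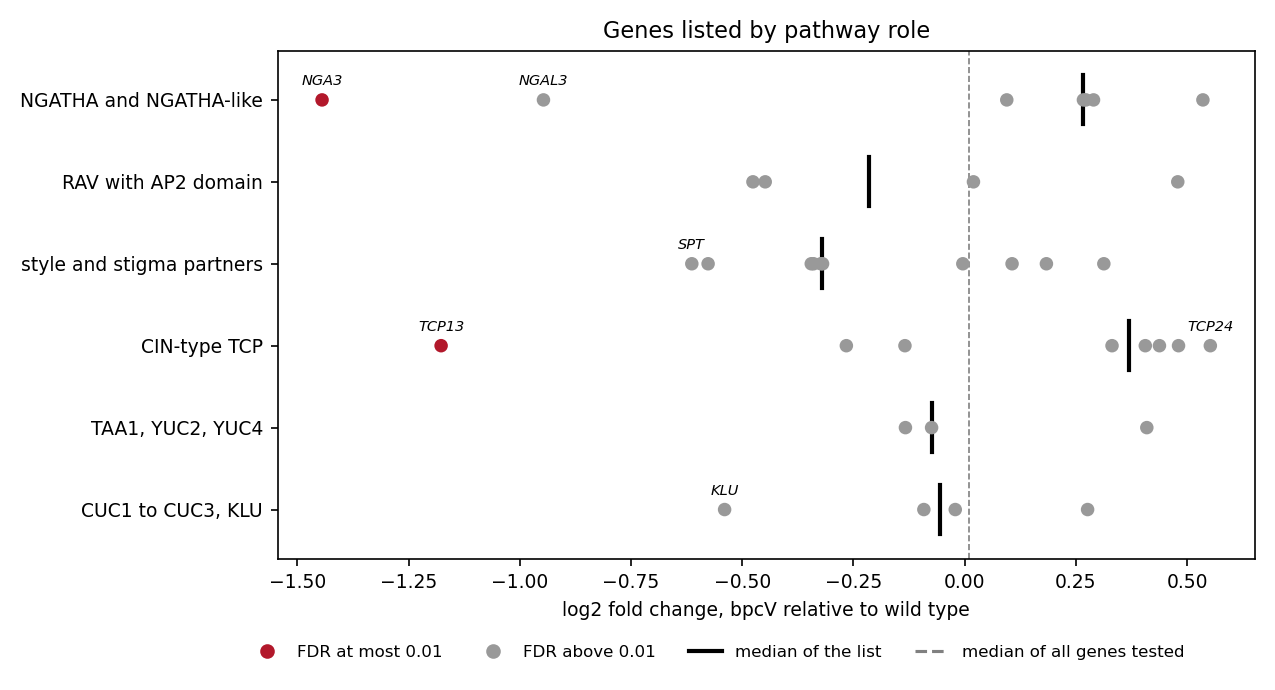
Log2 fold change of *bpcV* relative to wild type for every tested gene of 6 lists, 1 point per gene. Black bars mark each list's median and the dashed line the median of all genes tested (0.01). *NGA3* (-1.44) and *TCP13* (-1.18) are the only red points, that is, with an FDR of at most 0.01.

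The genes whose profiles over the 6 libraries were most like that of *NGA3* were sought among 18756 tested genes with a mean log2 CPM of at least 1. Likeness was the root mean square difference between log2 CPM values centred on each gene's mean. The nearest was *CAB3*, a chlorophyll a/b binding protein gene of photosystem II, at 0.104, with a log2 fold change of -1.49. It was followed by AT5G10760 (0.139, annotated as *AED1*), *MLP328* (0.141), AT2G13550 (0.144) and AT3G05160 (0.145). All 5 were lower in *bpcV* at the FDR of 0.01 in edgeR's test, with log2 fold changes from -1.63 to -1.24. The genes were chosen by likeness to *NGA3* in these same 6 libraries, so a similar difference between the genotypes follows from the choice. The distances are a description of 6 libraries.

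Only the next annotated gene on each side of a member was looked at, and none of those that were tested passed the threshold, beside 3.89% of all genes tested. Several neighbours were not among the genes tested, such as the lncRNA gene AT1G03987, 276 bases from *NGA3*. *DCL1*, the next annotated gene on one side of *NGA3*, lies 9406 bases away, and its log2 fold change was -0.20 ± 0.16 (FDR 0.443, edgeR). The neighbour that differed most was AT2G36090, 6926 bases from *NGAL1*, at 1.53 ± 0.32 (FDR 0.0187, edgeR).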

How the data were processed

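RNA of 3 *bpcV* and 3 wild type replicates was enriched for poly-A and sequenced as paired-end reads. Reads were mapped by the authors against TAIR10 transcripts with bowtie2 and quantified with RSEM; versions are not given in the sources used here. The authors deposited for each library the RSEM expected counts, without normalization, and TPM values, which are scaled by effective gene length. A further deposited table holds 6 columns of values, 1 for each library, and the authors' fold changes, p-values and FDR values, and was not used here.

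After rounding of the expected counts, genes were kept by filterByExpr (minimum count 10, minimum total 15), TMM factors were computed, and genotype, the only term, was tested by quasi-likelihood in edgeR 4.0.16 (R 4.3.3). P-values were adjusted by Benjamini-Hochberg over all genes tested, with a threshold of 0.01. The standard error is the absolute log2 fold change divided by the square root of F. The test was also run on simulated data. Shares and sums of TPM were compared by a two-sided exact permutation test. Replicate pairs of one genotype differed by more than sampling noise.

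Sequences and positions come from RefSeq's TAIR10.1, in which 31912 of the 32678 identifiers were found; the deposited files hold no coordinates. Coding sequences were aligned with mafft 7.526, since no protein table was used here. Tables and plots were made with Python 3.11.15, pandas 2.3.3 and matplotlib 3.10.9.

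Alternatives were RLE, upper-quartile or no factors, no filter, at least 10 counts in every library, unrounded counts, the likelihood ratio test, DESeq2 1.42.0, limma 3.58.1 on log2-transformed TPM (pseudocount 1 or 0.1, genes with a mean TPM of 1 or more), a block for the replicate number, and each library left out. The genes named are the 7 members, the mutated *BPC* genes, every listed pathway gene past the threshold, *SPT*, *TCP4*, *YUC4*, *CUC2* and *KLU*, and the 5 genes nearest to *NGA3* in profile. *TCP2*, *TCP3*, *TCP10*, *TCP24*, *AMS*, *TDF1*, *AP1*, *AP3*, *AG*, *PPME1*, the neighbouring genes and the shared stretch of the *NGA* genes were chosen after values or sequences had been seen. The members and lists were chosen with earlier results of these data known.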

Additional observations from a re-analysis of the deposited data

How the results depend on the processing

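No member changed the sign of its log2 fold change under any of the 17 alternatives. With an FDR of 0.05 or with edgeR's likelihood ratio test, 2 members were lower in place of 1, and with single libraries left out between 0 and 1 were. Over all genes, the 345 higher and 464 lower genes became 1184 and 1322 at an FDR of 0.05, 1008 and 1225 with the likelihood ratio test, 751 and 1063 with DESeq2, and 138 and 270 with the replicate block. Higher genes numbered 227 and 209 with limma on TPM with a pseudocount of 1 and 0.1. With single libraries left out, they ranged from 38 to 587 and the lower genes from 124 to 662; the fewest higher genes came without wild type replicate 2 (38) and the fewest lower ones without wild type replicate 1 (124). Of the style and stigma partners, 1 was lower at an FDR of 0.05, with the likelihood ratio test, with DESeq2 and without *bpcV* replicate 1, and 0 to 1 with single libraries left out. Of the CIN-type *TCP* genes, 4 were higher at an FDR of 0.05, 4 with the likelihood ratio test and 3 with DESeq2; with single libraries left out, 0 to 1 were higher and 0 to 1 lower. The log2 fold change of *CUC2* ranged from -0.20 to 0.18 with single libraries left out, and was above 0 without *bpcV* replicate 2 (0.18) and without wild type replicate 3 (0.09). CACTTG and CACGTG were each in 2 members in the longer promoter window, in place of 0, beside 36.9% and 16.6% of all such windows.

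The labels give same-numbered libraries only a number in common and do not say whether they were grown or prepared together. Their deviations from the genotype means correlated at -0.019, -0.013 and 0.177 over genes, and not every library correlated best with its own number. With the replicate block, *NGA3* had a log2 fold change of -1.46 (FDR 0.00612, edgeR) and *NGAL3* an FDR of 0.0788, and no member's call changed.

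With 3 libraries of each genotype and as few as 15 expected counts, differences of *NGAL3* and *NGA4* were measured with wide intervals, and a missed threshold does not show equal levels.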
